A study of Mus musculus with 6 samples.

Results

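The SOX genes encode transcription factors that share a DNA-binding HMG box, and they were followed here from mouse embryonic stem cells (ESCs) to neural progenitor cells (NPCs). Of 10 SOX identifiers set by a list of names, 8 matched a row among the 17144 genes of the array table. They were Sox3, Sox4, Sox5, Sox6, Sox8, Sox9, Sox10 and Sox21. Sox2 and Sox11 matched none under the identifiers used and were not analysed here. Labelled complementary RNA (cRNA) made from total RNA was hybridized to Affymetrix mouse GeneChip arrays. There were 3 biological replicates of each cell type and 1 array per replicate. The ESCs were wild type cells of the blastocyst-derived V6.5 line, on a 129SvJae/C57B6 F1 background, grown in serum with LIF. The NPCs were wild type too, were derived in vitro from these ESCs, and were kept in N3 medium with bFGF, EGF and laminin. Both cell types therefore share 1 genetic background and 1 parental line, so the arrays hold no spread between parental lines. Whether the NPC replicates were derived separately is not stated. The deposited values are on a log2 scale, with 1 per Ensembl gene, and come from RMA, the robust multi-array average. Because each array reads a whole culture, fewer cells that express a gene and less RNA per cell cannot be told apart.

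SOX proteins bind weakly to DNA through the HMG box, bend it, and gain specificity from partners such as the POU factors. The family is divided by sequence. SOXB1 proteins (SOX1, SOX2 and SOX3) maintain neural progenitors, SOXB2 proteins such as SOX21 oppose them, and SOXC proteins such as SOX4 act in young neurons and many other immature cells. SOXD proteins (SOX5 and SOX6) lack an activation domain and work beside SOXE proteins (SOX8, SOX9 and SOX10), which act in glia, neural crest and cartilage.

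On the arrays, 7 of the 8 SOX genes were higher in NPCs, by 3.48-fold to 11.9-fold, and Sox10 alone did not pass the test. A gene was called when the adjusted p from limma was under 0.05 over all genes and the means differed by more than 1.5-fold. The called SOX genes made up 87.5% of those measured, against 15.4% of all genes called higher in NPCs, 18.7% called lower and 34.1% called in either direction. With a difference of more than 2-fold the same 7 genes passed, beside 9.42% of all genes. For each of the 7 the lowest NPC array exceeded the highest ESC array, which held for 26.1% of all genes, whereas 32.6% of all genes had the opposite order, which no SOX gene had. The median log2 difference of the 8 SOX genes was 2.42, whereas that of all genes was -0.036 and moved to 0.12 when each array was centred on its median. These genes were chosen with earlier results of the same arrays known, so the counts describe them and were not tested against other lists.

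**Figure D1:**
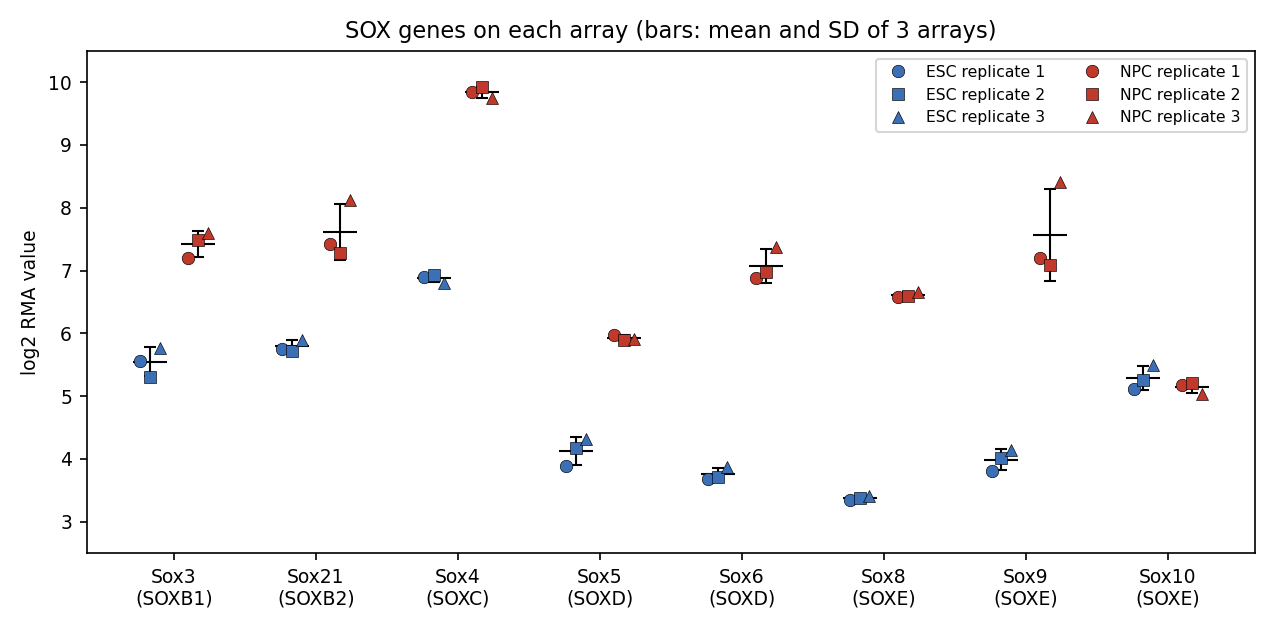
Log2 RMA value (vertical axis) of each SOX gene on each of the 6 arrays, with ESC arrays in blue, NPC arrays in red, symbols for the replicate number, and bars for the mean and SD of 3 arrays. The red points stand above the blue ones for each gene but Sox10, whose points intermingle between 5.04 and 5.49.

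The B group genes Sox3 and Sox21 rose by like amounts. Sox3 (ENSMUSG00000045179_at), a SOXB1 gene of neural progenitors, read 5.57, 5.31 and 5.77 in ESC replicates 1 to 3 and 7.20, 7.48 and 7.60 in NPC replicates 1 to 3. No ESC array came within 1.43 of an NPC array. Its log2 difference was 1.88 (standard error 0.15, 95% interval 1.52 to 2.24), or 3.67-fold, with an adjusted p of 4.93e-05 from limma. Sox3 had the widest spread of the 8 genes among the ESC arrays (SD 0.23, n = 3). Sox21 (ENSMUSG00000061517_at), the SOXB2 gene that counters SOXB1 activity in the neural tube, read 5.76, 5.71 and 5.90 in ESCs and 7.43, 7.29 and 8.12 in NPCs. NPC replicate 3 was the highest array, and the other NPC arrays still lay at least 1.38 above the ESC arrays. The log2 difference of Sox21 was 1.82 (standard error 0.21, 95% interval 1.32 to 2.32), or 3.53-fold, with an adjusted p of 0.000305 from limma.

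Sox4, the SOXC gene, rose with little spread between arrays. Sox4 (ENSMUSG00000076431_at) read 6.89, 6.93 and 6.80 in ESCs and 9.84, 9.93 and 9.74 in NPCs. The spread within either cell type was small, with an SD of 0.065 in ESCs and 0.091 in NPCs (n = 3 arrays each). Its log2 difference was 2.96 (standard error 0.09, 95% interval 2.76 to 3.16), or 7.79-fold, with an adjusted p of 4.09e-07 from limma. Unlike Sox6 and Sox8, Sox4 was not near the low end of the ESC arrays, since on none of them was it below the lower quartile of gene values.

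The paired SOXD genes both rose. Sox5 (ENSMUSG00000041540_at) read 3.88, 4.17 and 4.32 in ESCs and 5.98, 5.89 and 5.92 in NPCs. The 3 NPC arrays lay within 0.09 of each other, closer than the ESC arrays, which spanned 0.44. Its log2 difference was 1.80 (standard error 0.12, 95% interval 1.51 to 2.09), or 3.48-fold, with an adjusted p of 2.07e-05 from limma. Sox6 (ENSMUSG00000051910_at) read 3.68, 3.71 and 3.88 in ESCs and 6.88, 6.97 and 7.38 in NPCs. All 3 ESC values of Sox6 were below the lower quartile of their arrays, and no NPC value was. The log2 difference of Sox6 was 3.32 (standard error 0.14, 95% interval 2.98 to 3.65), or 9.96-fold, with an adjusted p of 2.38e-06 from limma.

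Sox6 has several annotated transcription starts. RefSeq promoter windows of 300 bases (GRCm38.p6, 250 before to 50 after a start) were at hand for 5 of the 8 genes, with 6 windows for Sox6 and 1 each for Sox4, Sox5, Sox8 and Sox21. The canonical SOX motif CTTTGTT was searched on both strands. It occurred in 3 of the 6 Sox6 windows and in 0 of the 4 others. Among all 32851 windows 5.85% held it. Counted by gene, Sox6 alone of the 5 held it, and it also had the most windows. Over all genes with a window, 6.68% held it in at least 1 window. The octamer ATGCAAAT, a motif of POU factors, occurred in 0 of the 10 windows and in 1.74% of all. A match describes letters and does not show binding, and the arrays do not tell which start was used. The 250 bases before the start of the 3 matching Sox6 windows are shown because they place the motif, in capitals, on the strand of the gene. At starts 1 and 4 the motif is on the opposite strand and so reads AACAAAG. The matches begin 114, 142 and 45 bases before starts 1, 3 and 4.
Sox6 start 1, chr7:116038745-116038994, minus strand: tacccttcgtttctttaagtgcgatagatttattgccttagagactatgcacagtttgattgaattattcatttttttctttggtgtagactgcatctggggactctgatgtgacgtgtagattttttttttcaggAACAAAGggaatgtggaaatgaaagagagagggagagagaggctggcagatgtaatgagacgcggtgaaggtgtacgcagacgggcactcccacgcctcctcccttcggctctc
Sox6 start 3, chr7:115995087-115995336, minus strand: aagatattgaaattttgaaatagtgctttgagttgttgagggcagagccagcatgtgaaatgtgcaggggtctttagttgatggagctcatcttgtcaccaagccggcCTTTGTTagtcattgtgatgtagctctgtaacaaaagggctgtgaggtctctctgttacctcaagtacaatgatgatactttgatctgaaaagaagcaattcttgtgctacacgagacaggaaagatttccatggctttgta
Sox6 start 4, chr7:115846141-115846390, minus strand: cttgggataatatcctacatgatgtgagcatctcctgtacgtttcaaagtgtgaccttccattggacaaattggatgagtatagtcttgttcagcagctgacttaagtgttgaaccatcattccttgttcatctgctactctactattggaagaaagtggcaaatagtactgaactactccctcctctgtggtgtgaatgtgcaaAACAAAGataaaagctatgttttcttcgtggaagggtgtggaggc

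The SOXE genes split, because Sox8 and Sox9 rose and Sox10 did not. Sox8 (ENSMUSG00000024176_at), which acts with its relatives in glia, crest and testis, read 3.35, 3.38 and 3.42 in ESCs and 6.58, 6.59 and 6.66 in NPCs. Its ESC values were all below the lower quartile of their arrays. The SD of Sox8 was the smallest of the 8 genes in both cell types (0.033 in ESCs and 0.041 in NPCs, n = 3 arrays each). The log2 difference was 3.23 (standard error 0.07, 95% interval 3.06 to 3.40), or 9.38-fold, with an adjusted p of 1.56e-07 from limma. Sox9 (ENSMUSG00000000567_at), which is needed for neural stem cells and for the start of gliogenesis, read 3.81, 4.02 and 4.14 in ESCs and 7.20, 7.08 and 8.41 in NPCs. NPC replicate 3 stood 1.27 above the mean of the other NPC arrays, which were 0.12 apart. The log2 difference of Sox9 was the largest of the 8, at 3.57 (standard error 0.34, 95% interval 2.78 to 4.37), or 11.9-fold, with an adjusted p of 0.000106 from limma.

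Sox10 (ENSMUSG00000033006_at), a gene of neural crest and of the oligodendrocyte lineage, read 5.11, 5.25 and 5.49 in ESCs and 5.18, 5.20 and 5.04 in NPCs. The 2 sets of arrays overlapped. The log2 difference was -0.14 (standard error 0.12, adjusted p = 0.364 from limma), and its sign turned when arrays were quantile normalized (0.0088) or centred on their medians (0.0095). The 95% interval, -0.42 to 0.13, leaves out a change of 1.5-fold in either direction on the deposited scale. Detection calls were not used, so these values do not set whether Sox10 RNA was present in either cell type. The exact two-sided permutation test of 3 arrays against 3 gave p = 0.4 for Sox10 and p = 0.1 for each of the other 7 genes, and 0.1 is the smallest value that design can give.

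**Figure D2:**
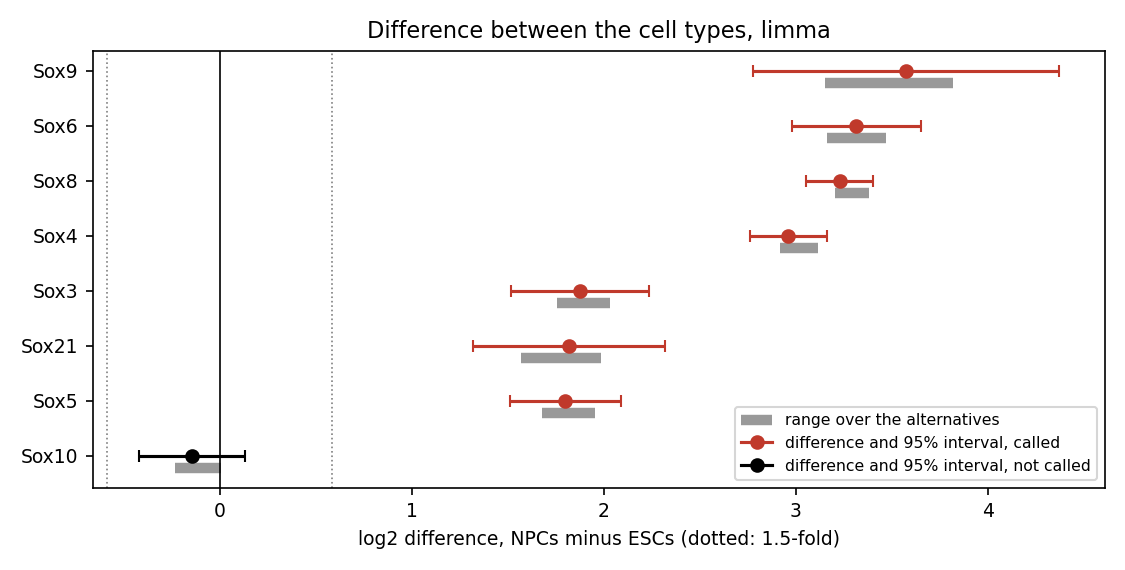
Log2 difference of NPCs minus ESCs (horizontal axis) for each SOX gene, with points and bars for the limma estimate and its 95% interval and grey bars for the lowest and highest value under the alternative ways of processing. Sox9, Sox6, Sox8 and Sox4 lie between 2.96 and 3.57, Sox3, Sox21 and Sox5 between 1.80 and 1.88, and Sox10 at -0.14.

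Listed by size of change, with many neighbours inside each other's error, the genes ran from Sox9 to Sox10. Sox9, Sox6 and Sox8, at 3.57, 3.32 and 3.23, had intervals that overlapped throughout, and that of Sox4 (2.76 to 3.16) overlapped those of all 3. Sox3, Sox21 and Sox5, at 1.88, 1.82 and 1.80, likewise had overlapping intervals, and the highest of their upper bounds was 2.32. The order is a description of these probe sets and no ranking of the genes, since the ESC values of Sox6 and Sox8 (3 of 3 arrays) and of Sox5 and Sox9 (1 of 3) were below the lower quartile, where RMA values have no true zero. Of all genes, 0.817% had a larger log2 difference than Sox9, 1.07% more than Sox6, 1.16% more than Sox8 and 1.43% more than Sox4. For Sox3, Sox21 and Sox5 the shares were 3.91%, 4.07% and 4.16%.

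**Figure D3:**
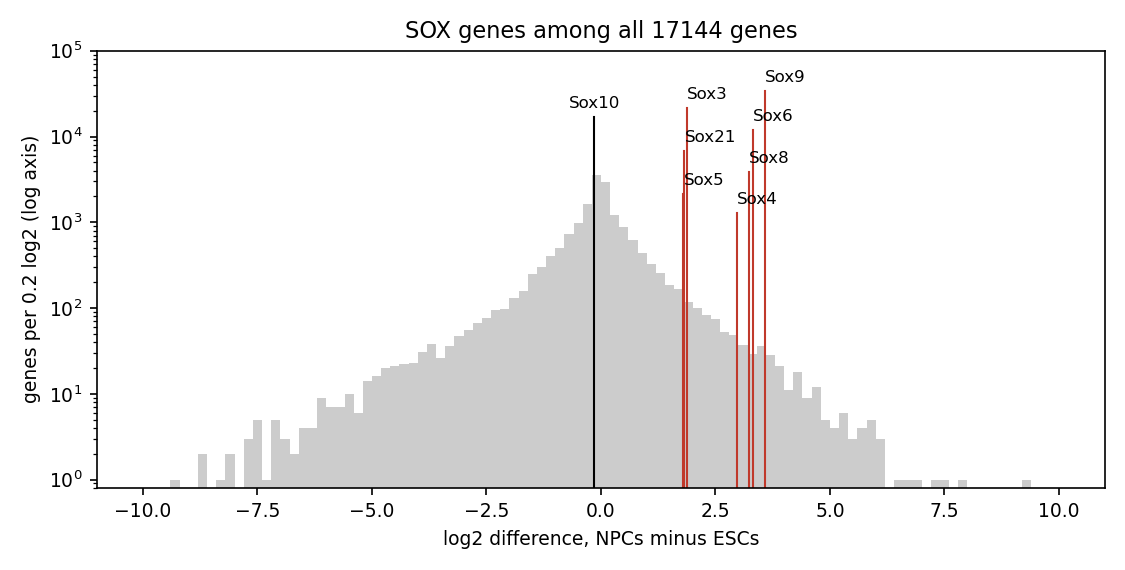
Number of genes per 0.2 of log2 difference (vertical axis, logarithmic) against the log2 difference of NPCs minus ESCs, over 17144 genes. Lines, whose heights only carry the names, mark the SOX genes, with Sox10 near the centre and the other 7 on the upper side, from 1.80 to 3.57.

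NPC replicate 3 stood apart from the other NPC arrays over the whole table. It correlated with them across genes at r = 0.978 to 0.979, whereas NPC replicates 1 and 2 correlated at r = 0.997 and the ESC arrays at r = 0.996 to 0.998. It differed from the mean of NPC replicates 1 and 2 by more than 1 on the log2 scale at 4.00% of all genes, and was above it by that much at 2.20%. Among the SOX genes only Sox9 did so, 2.41-fold above that mean, which is 1 of 8. At more than 1.5-fold Sox21 joined it, 1.70-fold above the mean (0.76 on the log2 scale), so that 2 of 8 passed beside 11.6% of all genes. Sox6 was 0.45 higher in replicate 3 and Sox3 0.25 higher, while Sox8 (0.071), Sox5 (-0.016), Sox4 (-0.14) and Sox10 (-0.16) stayed closer to the other arrays. Replicate 3 was the highest NPC array at 5 of the 8 genes and the lowest at 2. How many of all genes had either order was not counted, so these counts have no background. Without replicate 3 the same 7 genes passed the test. Sox9 then differed by 3.15 (standard error 0.11), Sox21 by 1.57 (standard error 0.09) and Sox6 by 3.17 (standard error 0.09) on the log2 scale. The other values were 1.79 for Sox3, 3.01 for Sox4, 1.81 for Sox5, 3.21 for Sox8 and -0.092 for Sox10. Sox4, Sox6, Sox8 and Sox9 were thus from 3.01 to 3.21, and Sox9 was no longer the highest of them. The labels give no date or batch for this replicate, and replicate 3 rests on 1 array.

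Named genes of neural precursors and of other neural cell types also differed on NPC replicate 3. How many of all genes were highest or lowest on this array was not counted. The marker counts below thus have no background. Of the neural precursor markers (6 of 10 named), 4 were higher on replicate 3 than on both other NPC arrays and 1 was lower. Their log2 values summed to 60.7, 60.2 and 63.0 in NPC replicates 1 to 3. Both neuron markers that could be named were lower there, with Syt1, a synaptic vesicle protein, at 6.93, 7.02 and 4.90 in NPC replicates 1 to 3 and Dcx, a microtubule protein of young neurons, at 4.86, 5.06 and 3.76. On the list of SOXC targets in young neurons, Dpysl3 (7.09, 7.01 and 7.69) and Nrcam (5.95, 5.65 and 6.16) were higher on that array, while Prox1 (4.80, 5.39 and 4.06) and Mex3b (8.09, 7.94 and 7.27) were lower. Both astrocyte markers that could be named were higher there, with S100b at 6.32, 6.13 and 7.02 and Aldoc at 10.44, 10.44 and 10.94. The sums of log2 values in replicates 1 to 3 were 11.8, 12.1 and 8.66 for the neuron markers (2 of 8 named) and 16.8, 16.6 and 18.0 for the astrocyte markers (2 of 7 named). Of the oligodendrocyte lineage markers (3 of 9 named), Nkx2-2 read 9.38, 9.24 and 6.68, Olig1 13.21, 13.22 and 12.99, and Olig2 11.07, 10.96 and 11.67, with sums of 33.7, 33.4 and 31.3. The part of these cell types in the SOX values of replicate 3 was not tested.

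**Figure D4:**
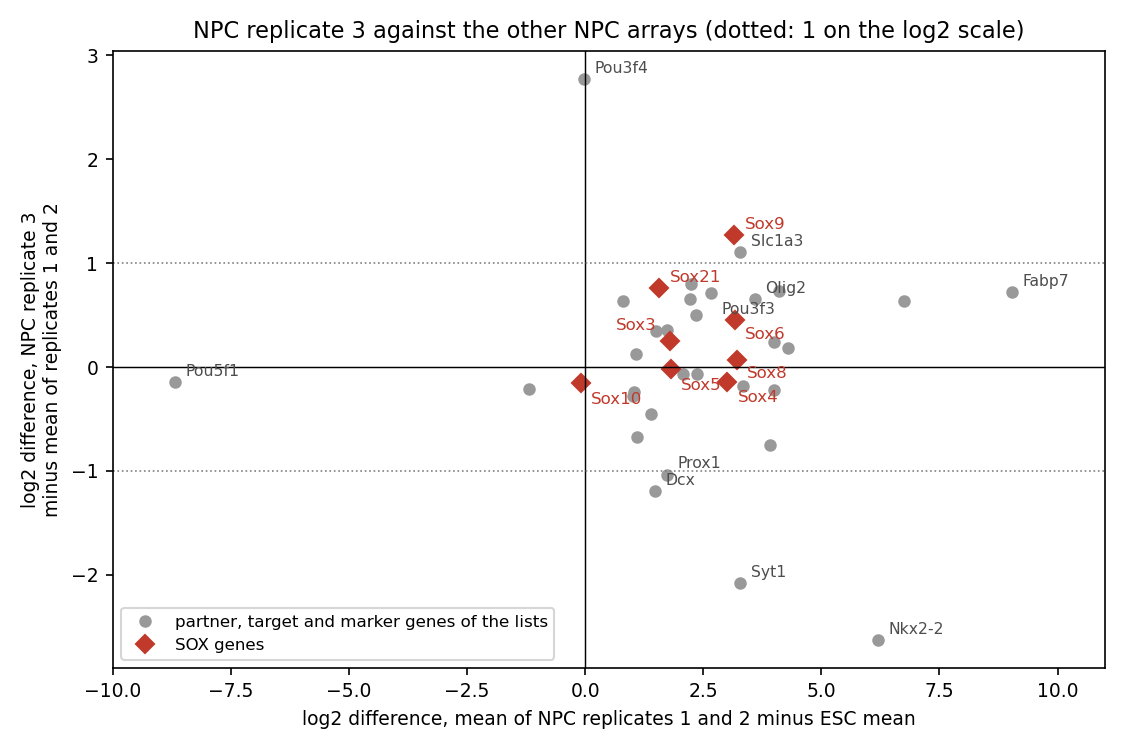
Log2 difference of NPC replicate 3 from the mean of NPC replicates 1 and 2 (vertical axis) against the log2 difference of that mean from the ESC mean (horizontal axis), for the 8 SOX genes in red and 31 partner, target and marker genes in grey. Sox9 at 1.27 is the SOX gene beyond the dotted line at 1, and Sox21 follows at 0.76.

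Partners, targets and markers of SOX factors were set in lists, and 31 of their 109 distinct genes could be named on the arrays. Names other than those of the SOX genes came mostly from the top of the study's own ranking by rise in NPCs. A count of rises over named genes, and their median difference, thus follow from how they were named and say nothing of the lists. None of the other 10 SOX genes on the lists (among them Sox1, Sox7, Sox15 and Sox17) could be named. Sox2ot (ENSMUSG00000090828_at), the noncoding transcript in whose intron Sox2 lies, read 3.77, 3.69 and 4.00 in ESCs and 4.89, 4.89 and 5.02 in NPCs. Its rise was 1.11 in log2 units (limma adjusted p = 0.000105, standard error 0.10). The labels do not state whether its probes tell it from transcripts of the Sox2 locus.

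The POU factors, the known partners of SOX proteins at shared DNA sites, changed in both directions. Pou5f1 (OCT4), the SOX2 partner of pluripotent cells, stood at 12.42, 12.45 and 12.46 in ESCs and at 3.68, 3.83 and 3.61 in NPCs, a log2 difference of -8.74. The broadly expressed Pou2f1 fell by 1.27. The neural class III genes Pou3f3 and Pou3f2 (BRN2) rose by 2.91 and 1.24, and Pou6f1 rose by 0.95. Pou3f4 read 4.42, 4.39 and 7.18 in NPCs against 4.61, 4.27 and 4.40 in ESCs and did not pass the test (adjusted p = 0.349 from limma). Pou3f3 was, like Sox21, higher in NPC replicate 3 than in the other NPC arrays, by 0.71.

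Among genes that SOX proteins are known to act on, the named targets in neural cells were called higher in NPCs, as were 15.4% of all genes. The named SOX2 target in ESCs (1 of 10), Pou5f1 itself, fell. Most of these names came from the study's ranking by rise, so the counts and medians below say nothing of the lists. Of the SOXB1 targets in neural precursors 8 of 11 were named and 8 passed the test, with a median log2 difference of 2.99. Fabp7, a lipid-binding protein of radial glia, rose by 9.27 and Bmi1, a Polycomb protein of self-renewing neural stem cells, by 4.36, whereas Nes, the intermediate filament of progenitors, rose by 2.05. Of the SOXC targets in young neurons 5 of 8 were named and 5 passed, with a median of 1.38, among them Mex3b (3.67), an RNA-binding protein, and the adhesion protein gene Nrcam (1.85). With separate variances and no moderation only these 2 of the 5 were called, and Dcx, Prox1 and Dpysl3 were not (adjusted p = 0.196, 0.140 and 0.0937). Of the targets of SOXD and SOXE proteins 4 of 12 were named and 4 passed, with a median of 3.95, including Nkx2-2 (5.33), a ventral neural tube factor, and Nfia (4.08), which acts with SOX9 at the start of gliogenesis. Beside Sox10 at -0.14, the oligodendrocyte lineage genes Olig1 and Olig2 rose by 3.92 and 3.81. Chd7, a remodeler that binds SOX proteins, was the only gene named of the 7 other partners and rose by 0.93.

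The labelled cell types could hardly be checked, because few markers were named and those mostly for their rise. Of the pluripotent cell markers only Pou5f1 was named (1 of 10), with the fall given above. Of the neural precursor markers 6 of 10 were named, led by Fabp7 and Ptprz1 (6.96), and their rise is no check of the label. Neural crest markers, the other cells in which Sox9 and Sox10 are prominent, had 2 of 8 named, and Twist1 (2.44) and Ets1 (2.35) both rose. In NPC replicates 1 to 3 Twist1 read 6.66, 6.35 and 7.16, and Ets1 read 7.20, 7.21 and 7.14. Their log2 values summed to 13.9, 13.6 and 14.3 on these arrays, and their part in the SOX values was not tested. No feeder fibroblast, endoderm or mesoderm marker was named, and these lists were not analysed here.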

How the data were processed

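Labelled cRNA made from total RNA was hybridized to Affymetrix mouse GeneChip arrays, 3 of ESCs and 3 of NPCs, grouped by the sample labels. The authors extracted the images with GeneChip Operating Software and deposited log2 values made by RMA, which corrects background, quantile normalizes and summarizes probes per Ensembl gene under an updated annotation (BrainCDF). Neither the annotation version nor a genome build is named in the sources used.

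Of 17208 rows, 64 control probe sets were left out, and no filter or further scaling was applied. Each of the 17144 genes was tested on all 6 arrays by lmFit and eBayes without covariates (limma 3.58.1, R 4.3.3), with Benjamini-Hochberg adjustment, and the test was checked on simulated data. The adjusted p of 0.05 and the 1.5-fold threshold follow the study's methods, whose moderated Welch test was rebuilt as an alternative. Arrays carry no counts, and their number limits the precision. The replicates are labelled biological, and what was separate between them is not stated. The p-values thus set each difference against the spread between these arrays only.

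The SOX genes were identified by Ensembl identifier. Other genes were named where all 6 values of a row equalled, within 0.0001, a row that the study's supplementary tables print with a name. The authors' own comparison columns there (differences, test statistics and false discovery rates) were not used. The text names all SOX, POU and Sox2ot rows and the 2 largest rises or falls of each list. Olig2, Nes, Dpysl3, Prox1 and Nr2e1 in the text, and Slc1a3 in a plot, fall outside this rule and were chosen after their values were seen. The members and lists were chosen with earlier results of these data known. Promoter sequences came from RefSeq (GRCm38.p6). 1 gene of the SOXB1 target list is not reported here and was left out of its counts. A comparison of SOX proteins was planned and not run. Python 3.11.15 with pandas 2.3.3 wrote the tables and matplotlib 3.10.9 drew the plots.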

Additional observations from a re-analysis of the deposited data

How the results depend on the processing

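The 7 SOX genes that rose were called under every alternative that kept them. The alternatives were the rebuilt moderated Welch test, separate variances without moderation, a mean-variance trend, the replicate block, quantile normalization, median centring, filters at the 25th percentile and the median, no fold threshold or one of 2-fold, and each array left out. The filter at the median kept 4 of the 7, Sox3, Sox4, Sox9 and Sox21, so 4 SOX genes were called, 4 of them higher. With each array left out the number stayed at 7. The SOX adjusted p nearest the threshold was 0.0493, for Sox21 without moderation. Sox10 went from -0.14 to 0.0088 under quantile normalization and 0.0095 under median centring, was called in no setting, and lay between -0.23 and -0.040 with an array left out. Of all genes 5851 passed, 2638 of them higher in NPCs and 3213 lower, against 3592, 1615 and 1977 at more than 2-fold. Median centring gave 3302 higher and 2642 lower. The count of genes at which NPC replicate 3 stood apart by over 1 was 686, against 444 with the filter at the median and 1995 at more than 1.5-fold, where the SOX count rose from 1 to 2. Pou3f4, 0.90 on all arrays, ranged from -0.023 (without NPC replicate 3) to 1.37 with an array left out. With separate variances 24 in place of 30 list genes were called, without Nkx2-2, Syt1, Dcx, Prox1, Dpysl3 and Nr2e1. Dcx was not called with any 1 array left out other than NPC replicate 3 (adjusted p 0.0604 to 0.0897). Deviations from the group means correlated at 0.026, 0.011 and -0.0065 across genes for arrays of the same replicate number, so the number was not taken as a pairing. A replicate block gave 5867 called genes and no SOX call changed.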
